A study of Homo sapiens with 8 samples.

Results

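The clustered protocadherin genes lie in 3 tandem groups, PCDHA, PCDHB and PCDHG, on the long arm of human chromosome 5. The regions described here are all ATAC-seq peaks of the 8 deposited lists, merged across lists wherever they shared at least 1 bp, that overlap the window chr5:140150000-140900000 of build hg19. They number 23 of the 80588 merged regions on chromosomes 1 to 22 and X, with 5 regions in PCDHA (taken as 140160000 to 140390000), 5 in PCDHB (140430000 to 140630000), 10 in PCDHG (140710000 to 140900000) and 3 between clusters. These cluster bounds are approximate.

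ATAC-seq measures open chromatin through the insertion of sequencing adapters by the Tn5 transposase. Cells of 2 established oral squamous cell carcinoma lines were used, KOSC-2, which the labels call radiosensitive, and HSC-3, called radioresistant. Each line was given 8 Gy or 0 Gy of radiation and frozen 24 hours later, with 2 libraries per line and dose and no other treatment stated. The groups are thus KOSC-2 8 Gy, KOSC-2 0 Gy, HSC-3 8 Gy and HSC-3 0 Gy, and a single line stands for each class of radiosensitivity. Whether a group's 2 libraries stem from separate cultures is not stated, so the p-values below reflect the spread between libraries, which may be technical. No gene annotation of hg19 was used, so no peak was assigned to a gene, and the identity of the cells was not checked against marker genes.

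Clustered protocadherins are cell surface adhesion proteins of the cadherin family, best known in neurons, where combinations of isoforms give a cell an identity that its own branches recognise. In PCDHA and PCDHG each large variable exon has its own promoter and is spliced to a shared set of constant exons at the downstream end of the cluster, whereas PCDHB genes have no constant exons. The last variable exons of PCDHA and PCDHG, called C type, are expressed more evenly among neurons than the others, of which single neurons use only some. Most of these promoters carry a conserved element with the core CGCT, known from mouse and human, and the insulator protein CTCF binds there and at distal enhancers. DNA methylation of the clusters is known from several carcinomas and was not measured here.

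The order of the genes matters for reading the positions below. In the RefSeq gene table (GRCh38.p14, used for names and order only), PCDHAC1 and PCDHAC2 are the last genes of PCDHA, and PCDHGC3, PCDHGC4 and PCDHGC5 the last of PCDHG. SLC25A2, a mitochondrial amino acid transporter gene, and TAF7, which encodes a subunit of the general transcription factor TFIID, lie between PCDHB15 and PCDHGA1. DIAPH1, a gene for an actin-nucleating formin, follows PCDHG. To show how the C type promoters differ in sequence from their neighbours, one promoter of each kind is given for both clusters. Each is the 250 bases upstream of the start in RefSeq (GRCh38.p14, plus strand, 5′ to 3′), and capitals mark CGCT on either strand (CGCT or AGCG). A marked match need not belong to the conserved element.
PCDHA4: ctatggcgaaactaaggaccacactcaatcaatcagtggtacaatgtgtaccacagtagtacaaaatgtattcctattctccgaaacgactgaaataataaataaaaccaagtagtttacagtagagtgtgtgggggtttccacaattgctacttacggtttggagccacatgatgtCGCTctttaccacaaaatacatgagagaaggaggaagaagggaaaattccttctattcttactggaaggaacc
PCDHAC2: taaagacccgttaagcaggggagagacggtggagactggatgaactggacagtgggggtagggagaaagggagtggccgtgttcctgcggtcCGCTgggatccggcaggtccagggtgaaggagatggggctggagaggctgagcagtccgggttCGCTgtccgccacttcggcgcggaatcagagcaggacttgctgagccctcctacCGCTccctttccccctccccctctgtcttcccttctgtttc
PCDHGA3: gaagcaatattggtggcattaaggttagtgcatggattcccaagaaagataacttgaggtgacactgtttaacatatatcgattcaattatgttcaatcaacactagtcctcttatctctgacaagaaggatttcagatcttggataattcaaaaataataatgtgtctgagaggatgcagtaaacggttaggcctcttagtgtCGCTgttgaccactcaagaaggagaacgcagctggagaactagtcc
PCDHGC3: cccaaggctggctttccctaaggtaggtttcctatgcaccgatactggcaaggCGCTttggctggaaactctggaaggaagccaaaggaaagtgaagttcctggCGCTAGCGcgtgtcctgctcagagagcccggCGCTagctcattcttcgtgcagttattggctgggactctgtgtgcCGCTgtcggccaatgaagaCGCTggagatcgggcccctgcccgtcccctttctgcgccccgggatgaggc

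Promoters were found for 47 of the 53 protein-coding genes of the clusters, 13 of 15 in PCDHA, 14 of 16 in PCDHB and 20 of 22 in PCDHG. CGCT on either strand occurred in 45 of the 47, or 95.7%, against 64.8% of all 35116 promoters of the table at the same length. Only these 4 bases were searched for, so a match need not be the conserved element, and the counts do not show which promoters carry it. The 4 C type promoters found were richer in CpG than most other promoters of PCDHA and PCDHG, and PCDHGC5 was not among the 47. PCDHAC1 had 18 CpG, PCDHAC2 13, PCDHGC3 15 and PCDHGC4 13, whereas the other 29 promoters of PCDHA and PCDHG had 2 to 14 with a median of 5. PCDHGB6, with 14, lay above PCDHAC2 and PCDHGC4. PCDHGA11, the last one found ahead of PCDHGC3, had 11. PCDHB promoters had 4 to 11 (median 6), and all promoters of the table a median of 11. The median GC content was 61.2% in the 4 C type promoters, against 35.6% in the other PCDHA and PCDHG promoters and 58.0% in all promoters. These counts describe the reference sequence and not the cell lines.

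**Figure D1:**
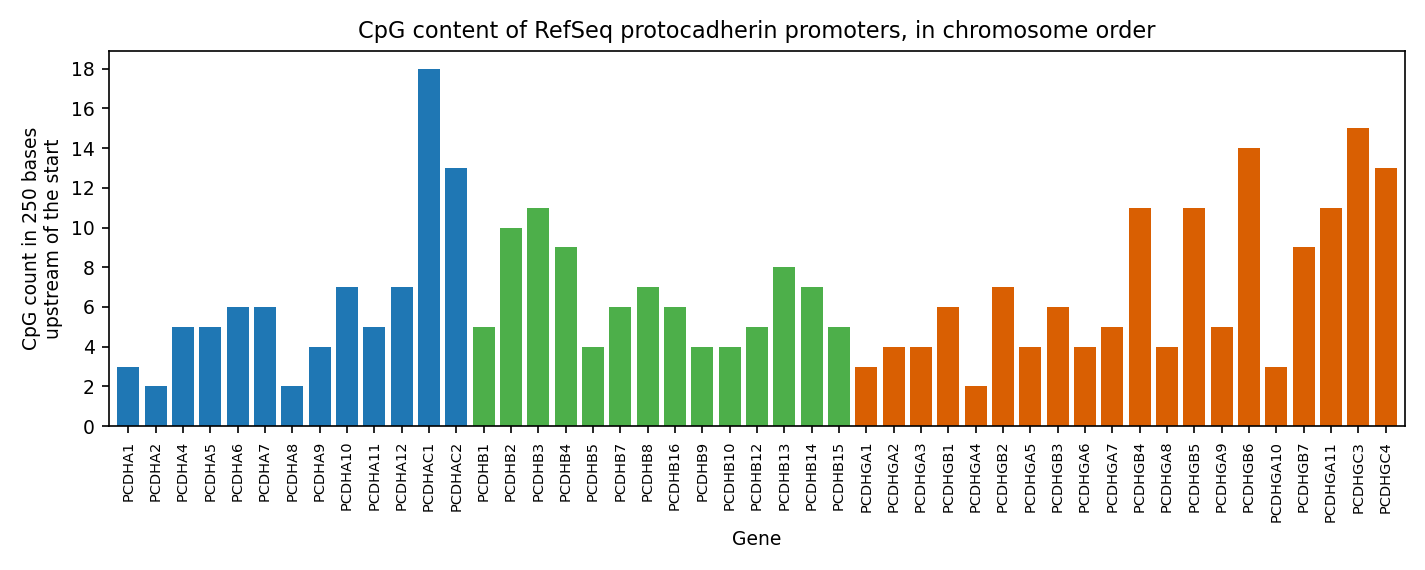
CpG count in the 250 bases upstream of the RefSeq start (y axis) for 47 protocadherin genes in chromosome order (x axis), with PCDHA in blue, PCDHB in green and PCDHG in orange. The C type genes at the end of PCDHA and PCDHG reach 13 to 18, the other PCDHA genes 2 to 7 and the other PCDHG genes 2 to 14.

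The libraries differed in depth and enrichment, which bears on every count below. The lowest background in a list ran from 20.2 to 64.8 reads per 10 kb across libraries, and lists held 22504 to 51693 peaks. Over regions that every library called, the median pileup stood at 21.9 to 65.9 times this background, lowest in HSC-3 8 Gy replicate 1 (21.9), KOSC-2 0 Gy replicate 1 (25.7) and HSC-3 0 Gy replicate 2 (34.7). Libraries of a group shared at most 0.0259% of identical intervals and were counted as separate samples. In the protocadherin window, KOSC-2 8 Gy libraries held 15 and 12 peaks (replicates 1 and 2) and KOSC-2 0 Gy libraries 7 and 13, while HSC-3 8 Gy libraries held 4 and 11 and HSC-3 0 Gy libraries 9 and 8. The 3 libraries of lowest enrichment thus gave 4 to 8 peaks, and their part in the differences between groups was not tested beyond the values without them given below.

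The open regions of the protocadherin window were few, and the recurrent ones lay towards the downstream ends of PCDHA and PCDHG and between the clusters. Of the 23 regions, 4 (17.4%) were called in all 8 libraries, close to the 15.9% of all merged regions, and 11 (47.8%) in 1 library, against 31.9% of all merged regions. With a call required to cover 50% of the merged region, 1 was called in all 8, and without KOSC-2 8 Gy replicate 1 the regions called in 1 library numbered 7. The 4 regions open in every library stood 234, 550, 706 and 744 kb from the start of the window, that is 1 in PCDHA, 1 between PCDHB and PCDHG and 2 in PCDHG. None of the 5 PCDHB regions was called in all 8 libraries, and the most recurrent was called in 5. With 5 regions, and 15.9% of all merged regions called in all 8, this count does not set PCDHB apart.

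**Figure D2:**
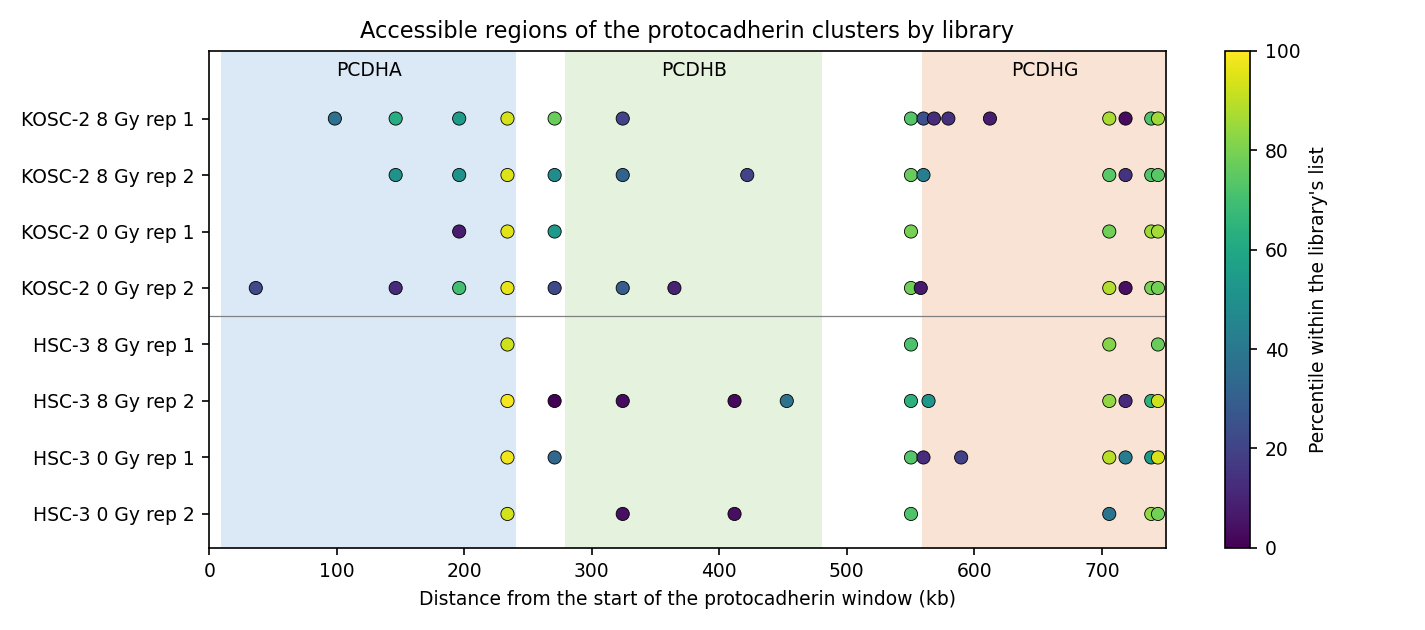
Regions called in each library (rows) by distance from the start of the window in kb (x axis). Each dot is a called region, coloured by its percentile within the library's own list, and shading marks the PCDHA, PCDHB and PCDHG bounds. Dots in all 8 rows stand at 234, 550, 706 and 744 kb, and only the KOSC-2 rows have dots in PCDHA ahead of 234 kb.

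PCDHA showed 1 strong region shared by both lines and 4 others called only in KOSC-2 libraries, 2 of them in a single library. Of all merged regions, 32.0% had no HSC-3 call. The shared region, chr5:140383558-140384219, lay 5.78 kb ahead of the cluster's downstream bound, at the end of the cluster towards which the C type genes and the constant exons follow in the gene order. It was the strongest region of the window. Its percentile within the list, where 100 marks the strongest peak by −log10 p, was 93.7 and 94.9 in KOSC-2 8 Gy libraries (replicates 1 and 2), 95.6 and 96.1 in KOSC-2 0 Gy libraries, 92.2 and 98.8 in HSC-3 8 Gy libraries, and 98.0 and 93.3 in HSC-3 0 Gy libraries. The groups overlapped, and the means were 95.1 ± 1.06 in KOSC-2 and 95.6 ± 3.27 in HSC-3 (SD, n = 4 each). The summit pileup was 72 to 82 reads in KOSC-2 libraries and 39 to 78 in HSC-3 libraries. The authors' fold enrichment over the local background at the summit was 11.6 to 14.1 and 9.64 to 15.3. Against the lowest background of the library, a different measure, the pileup was 37.5 to 98.8 times in KOSC-2 and 32.8 to 126 times in HSC-3. All 8 summits fell within 55 bp of each other.

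The next PCDHA region upstream, chr5:140345543-140346505, was called in 4 of 4 KOSC-2 libraries and 0 of 4 HSC-3 libraries. It was the only line-specific region of the window, 1 of 23 (4.35%), where 2.07% of all merged regions were KOSC-2-only and 0.300% HSC-3-only. The count was 2 without KOSC-2 0 Gy replicate 1, and 0 with only peaks of −log10 q of at least 5, since that library's peak had a −log10 q of 4.90. Its percentile was 54.6 and 51.0 in KOSC-2 8 Gy libraries and 7.56 and 69.6 in KOSC-2 0 Gy libraries, and the low value came from replicate 1, the KOSC-2 library of lowest enrichment. The summit pileup was 28 and 22 reads in KOSC-2 8 Gy libraries and 16 and 33 in KOSC-2 0 Gy libraries, which is 22.8 and 30.2 times and 8.22 and 35.0 times the background of the library. The 8.22 of KOSC-2 0 Gy replicate 1 lay near, and the other ratios above, the smallest ratio of any peak in the HSC-3 lists, which was 6.25 and 8.06 in HSC-3 8 Gy libraries and 7.41 and 8.26 in HSC-3 0 Gy libraries. Local background under the region was 1.65 to 2.61 times that of the library in KOSC-2, and the authors' fold over it 4.04 to 9.83. Enrichment also differed between libraries. The smallest ratios of whole lists thus cannot show whether the HSC-3 lists could have called this region. The region 49.0 kb further upstream, chr5:140295871-140296542, was called in both KOSC-2 8 Gy libraries (percentiles 62.0 and 51.1) and in KOSC-2 0 Gy replicate 2 (12.1), and in 0 of 4 HSC-3 libraries. Its 3 summits fell within 46 bp of each other, with pileups of 26 and 20 reads in the 8 Gy libraries and 12 in the 0 Gy library.

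The remaining 2 PCDHA regions were called in 1 library each, chr5:140186376-140186689 in KOSC-2 0 Gy replicate 2 (percentile 22.6, pileup 12) and chr5:140248359-140248702 in KOSC-2 8 Gy replicate 1 (percentile 37.2, pileup 16). They are the only calls in the first part of PCDHA, the end at which the gene order starts with PCDHA1. The last 50 kb of the cluster held 2 regions with 12 calls, a call being 1 region in 1 library, and a median percentile of 93.5. The other 180 kb held 3 regions with 5 calls and a median percentile of 37.2. The length of 50 kb was chosen after the positions were seen, and these values carry no test.

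The lines were compared on PCDHA as a whole by the share of each library's peaks that fell in the cluster, since the lists differ in length. KOSC-2 libraries had 13 calls and HSC-3 libraries 4, all of them in the shared region. The share was 0.00774% and 0.00707% in KOSC-2 8 Gy libraries and 0.00523% and 0.00880% in KOSC-2 0 Gy libraries, against 0.00444% and 0.00232% in HSC-3 8 Gy libraries and 0.00239% and 0.00426% in HSC-3 0 Gy libraries. The lines did not overlap. KOSC-2 averaged 0.00721% ± 0.00150, against 0.00335% ± 0.00116 for HSC-3 (SD, n = 4 each). The difference of 0.00386 percentage points had the smallest p that 4 against 4 libraries allow (exact two-sided permutation test, p = 0.0286) and did not pass after Benjamini-Hochberg adjustment over 4 areas (adjusted p = 0.114). It was 0.00493 percentage points (exact permutation p = 0.0286, adjusted 0.114) with each cluster narrowed by 10 kb at both ends, which leaves out the shared region and with it every HSC-3 peak in PCDHA. The unadjusted exact permutation p was 0.0857 with a −log10 q of at least 5 and with bases counted in place of peaks, 0.143 with lists of equal length and 0.171 with peaks above the 50th percentile.

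**Figure D3:**
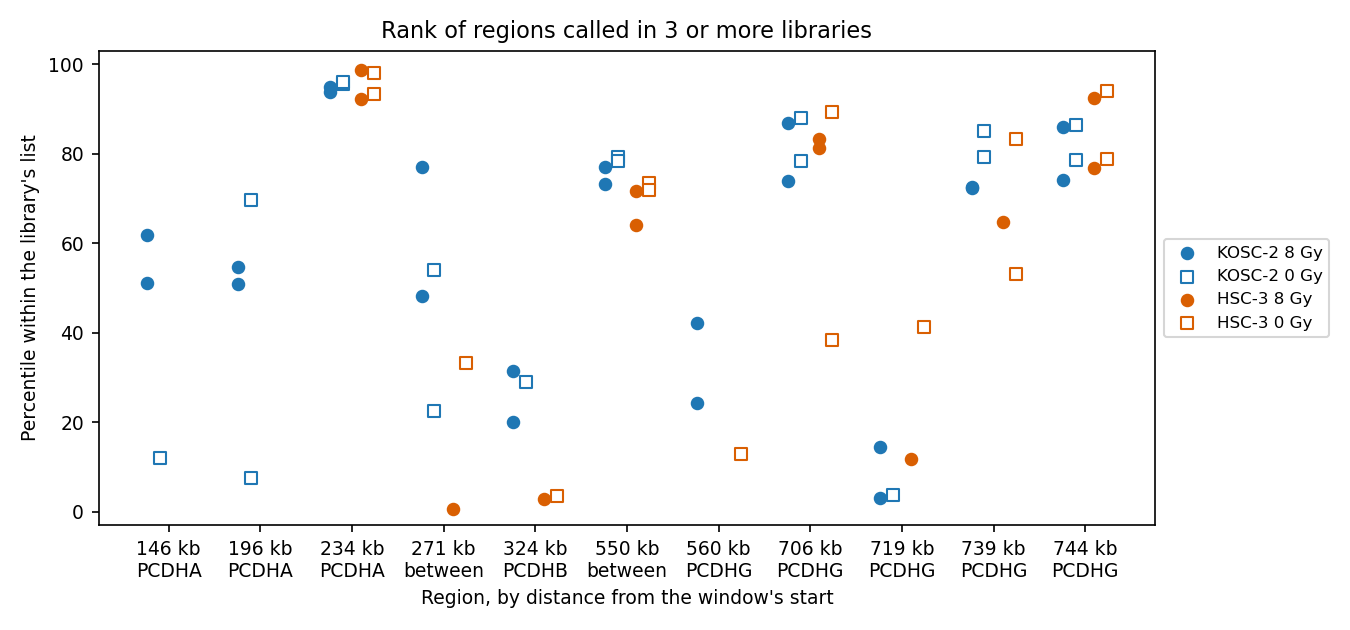
Percentile within the library's own list (y axis) for the 11 regions called in 3 or more libraries, ordered by distance from the start of the window (x axis). Each mark is 1 library (filled circles 8 Gy, open squares 0 Gy; KOSC-2 blue, HSC-3 orange). The PCDHA region at 234 kb sits above 92 in all 8 libraries, and the PCDHA regions at 146 and 196 kb have KOSC-2 marks only.

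Between PCDHA and PCDHB, chr5:140420609-140421104 was called in 4 of 4 KOSC-2 libraries and 2 of 4 HSC-3 libraries. Its percentile was 77.0 and 48.1 in KOSC-2 8 Gy libraries and 54.0 and 22.6 in KOSC-2 0 Gy libraries, against 0.548 in HSC-3 8 Gy replicate 2 and 33.3 in HSC-3 0 Gy replicate 1. The pileup was 12 to 34 reads in KOSC-2 and 6 and 13 in HSC-3, in libraries of unlike depth. Against the background of the library it was 27.6 and 24.7 times in KOSC-2 8 Gy libraries and 11.3 and 12.7 times in KOSC-2 0 Gy libraries. The ratio was 9.67 in HSC-3 8 Gy replicate 2 and 16.1 in HSC-3 0 Gy replicate 1, so the lines overlapped by this measure. The HSC-3 libraries without a call were both of low enrichment.

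PCDHB held regions of low rank, with no percentile above 38.0. The most recurrent, chr5:140474029-140474502, was called in 5 libraries. Its percentile was 20.1 and 31.5 in KOSC-2 8 Gy libraries and 29.1 in KOSC-2 0 Gy replicate 2, against 2.97 in HSC-3 8 Gy replicate 2 and 3.65 in HSC-3 0 Gy replicate 2. The pileup was 13 reads in each KOSC-2 library that called it and 7 in each HSC-3 library that called it, and these libraries differ in depth. Against the background of the library it was 10.6 and 17.8 times in KOSC-2 8 Gy libraries and 13.8 times in KOSC-2 0 Gy replicate 2. In HSC-3 8 Gy replicate 2 and HSC-3 0 Gy replicate 2 the ratio was 11.3 and 11.6, so the lines overlapped by this measure. The region chr5:140561752-140562139 was called in 2 HSC-3 libraries, 8 Gy replicate 2 (percentile 2.40) and 0 Gy replicate 2 (3.65), with 7 reads each and summits 176 bp apart, and in 0 of 4 KOSC-2 libraries. The other 3 were called in 1 library each. They were chr5:140602743-140603070 in HSC-3 8 Gy replicate 2, the strongest of the cluster at percentile 38.0, chr5:140571755-140572054 in KOSC-2 8 Gy replicate 2 (20.1) and chr5:140514644-140514943 in KOSC-2 0 Gy replicate 2 (9.38). KOSC-2 0 Gy replicate 1, HSC-3 8 Gy replicate 1 and HSC-3 0 Gy replicate 1 had no peak in PCDHB. The lines had 5 calls each and overlapped. KOSC-2 had 0.00276% ± 0.00222 of its peaks here and HSC-3 0.00387% ± 0.00451 (SD, n = 4 each). The difference did not pass (exact permutation p = 0.657, adjusted 0.771).

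Between PCDHB and PCDHG, in the interval where the gene order puts SLC25A2 and TAF7, chr5:140699778-140700826 was called in all 8 libraries. Its percentile was 73.3 and 76.9 in KOSC-2 8 Gy libraries and 79.2 and 78.3 in KOSC-2 0 Gy libraries, against 71.8 and 64.0 in HSC-3 8 Gy libraries and 73.4 and 72.0 in HSC-3 0 Gy libraries. The means were 76.9 ± 2.56 in KOSC-2 and 70.3 ± 4.24 in HSC-3 (SD, n = 4 each), and the lines overlapped only at the lowest KOSC-2 value (73.35) and the highest HSC-3 value (73.36). The region was preceded by 96.7 kb without a call in any library, the longest such stretch of the window. The remaining region between clusters, chr5:140707795-140708152, was called only in KOSC-2 0 Gy replicate 2 (percentile 6.91, pileup 11).

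In PCDHG most calls also lay at the downstream end, towards which its C type genes and constant exons follow in the gene order. Its last 50 kb held 4 regions with 28 calls and a median percentile of 78.5. The other 140 kb held 6 regions with 8 calls and a median percentile of 16.5. As in PCDHA, the length of 50 kb was chosen after the positions were seen, and these values carry no test. Of the 28 calls, 8 came from chr5:140893357-140894604, which may lie outside the cluster. A stretch of 92.8 kb without a call in any library separated the 2 parts. Stretches at least this long made up 7.08% of all gaps between merged regions of the genome.

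The strong PCDHG regions were shared by the lines. The region chr5:140855201-140856383 had percentiles of 86.8 and 73.9 in KOSC-2 8 Gy libraries and 78.4 and 88.1 in KOSC-2 0 Gy libraries, against 81.3 and 83.3 in HSC-3 8 Gy libraries and 89.3 and 38.3 in HSC-3 0 Gy libraries. The single low value came from HSC-3 0 Gy replicate 2, where the region was split into a pair of peaks and the stronger one was taken. In shares and densities both peaks of the pair count. The region chr5:140893357-140894604, the last of the window, had percentiles of 85.9 and 74.1 in KOSC-2 8 Gy libraries and 86.4 and 78.6 in KOSC-2 0 Gy libraries, against 76.8 and 92.5 in HSC-3 8 Gy libraries and 94.0 and 78.8 in HSC-3 0 Gy libraries. The lines overlapped in both regions. The last region lay within 10 kb of the approximate bound and may lie outside the cluster. It is counted in PCDHG here by the bounds used, and values with narrowed bounds leave it out. The first region outside the window, chr5:140900411-140901379, was also called in all 8 libraries (mean percentile 75.7), and on the other side the nearest was chr5:140105429-140106052, 43.9 kb ahead of the window and called in all 8 (68.6).

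Between these, chr5:140888301-140889153 was called in 7 libraries and missed in HSC-3 8 Gy replicate 1. Its percentile was 72.6 and 72.4 in KOSC-2 8 Gy libraries and 85.1 and 79.4 in KOSC-2 0 Gy libraries, against 64.8 in HSC-3 8 Gy replicate 2 and 53.2 and 83.3 in HSC-3 0 Gy libraries. The weaker chr5:140868176-140868943 was called in 5 libraries, with percentiles of 3.07 and 14.6 in KOSC-2 8 Gy libraries and 3.74 in KOSC-2 0 Gy replicate 2, against 11.8 in HSC-3 8 Gy replicate 2 and 41.2 in HSC-3 0 Gy replicate 1. It was missed in the 3 libraries of lowest enrichment. Its summits spread over 463 bp, the widest spread of the window, against 83 to 102 bp for the other 3 regions of this end.

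In the first part of PCDHG, chr5:140709827-140710364, which straddles the cluster's upstream bound, was called in both KOSC-2 8 Gy libraries (percentiles 24.4 and 42.2) and neither KOSC-2 0 Gy library, and also in HSC-3 0 Gy replicate 1 (12.9). The other 5 regions there were called in 1 library each. They were chr5:140718146-140718486, chr5:140729474-140729773 and chr5:140762069-140762396 in KOSC-2 8 Gy replicate 1 (percentiles 12.2, 13.8 and 8.03), chr5:140713855-140714287 in HSC-3 8 Gy replicate 2 (52.4) and chr5:140739440-140739862 in HSC-3 0 Gy replicate 1 (19.2). Over the whole cluster the share of peaks averaged 0.0110% ± 0.00344 for KOSC-2 and 0.0130% ± 0.00350 for HSC-3 (SD, n = 4 each), a difference within the spread between libraries (exact permutation p = 0.486, adjusted 0.771).

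The clusters were then compared with each other within each library. PCDHG had the highest density, with 2.43 ± 0.972 peaks per 100 kb, against 0.924 ± 0.590 in PCDHA and 0.625 ± 0.582 in PCDHB (SD, n = 8). It was higher than PCDHA in 8 of 8 libraries, by 1.51 peaks per 100 kb, and higher than PCDHB in 8 of 8, by 1.81 (exact two-sided sign-flip permutation tests over libraries, each p = 0.00781, the smallest that 8 libraries allow, adjusted over 3 pairs 0.0117). Without the 3 libraries of lowest enrichment the differences were 1.82 and 2.15 (adjusted exact p = 0.0938 for both, where 5 libraries allow an unadjusted p no smaller than 0.0625). With the bounds narrowed by 10 kb PCDHG exceeded PCDHA by 1.23 and PCDHB by 1.07 (adjusted exact permutation p = 0.0117 for both), and among peaks above the 50th percentile of their list it exceeded PCDHA by 0.807 (0.00781). PCDHB was below PCDHA in 6 of 8 libraries and above it in 2, a difference of -0.299 that did not pass (exact permutation p = 0.305). With only peaks of −log10 q of at least 5 this difference was -0.495 (adjusted exact permutation p = 0.0156), and with the bounds narrowed by 10 kb it turned to 0.159 (0.656).

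PCDHB peaks also ranked lowest, although fewer libraries could be used. In the 5 libraries with a PCDHB peak, the mean percentile was 16.7 ± 8.31 in PCDHB and 73.9 ± 21.1 in PCDHA (SD, n = 5), lower in 5 of 5 libraries (exact permutation p = 0.0625, the smallest that 5 libraries allow, adjusted 0.0938). In the same 5 libraries PCDHG peaks averaged 53.7 ± 9.65, above PCDHB in 5 of 5 (exact permutation p = 0.0625, adjusted 0.0938). Over 8 libraries PCDHG averaged 60.3 ± 14.8 and PCDHA 76.4 ± 21.2 (SD, n = 8), a difference that did not pass (exact permutation p = 0.133, adjusted 0.133). The PCDHA mean rests on its 1 shared region, the only PCDHA peak of each HSC-3 library. With the bounds narrowed by 10 kb, which leaves it out, PCDHB less PCDHA was -24.0 against -57.3 with the full bounds, and PCDHG less PCDHA was 21.2 against -16.1 (adjusted exact permutation p = 0.375 for both narrowed values).

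The protocadherin window was sparser in peaks than the neighbouring stretches of chromosome 5. It held 1.32 ± 0.475 peaks per 100 kb, against 3.58 ± 0.623 in the 750 kb upstream and 3.97 ± 1.13 in the 750 kb downstream (SD, n = 8). It was the lower in 8 of 8 libraries in both comparisons, and the ranges did not overlap (differences of -2.27 and -2.65, exact sign-flip permutation p = 0.00781 and adjusted 0.00781 for both). Without the 3 libraries of lowest enrichment the differences were -2.32 and -3.07 (adjusted exact permutation p = 0.0625, the smallest that 5 libraries allow). The median gap between regions was 26.4 kb in the window, against 9.14 kb upstream, 9.22 kb downstream and 15.2 kb over all chromosomes. Gene content differs between these stretches and its part was not tested.

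**Figure D4:**
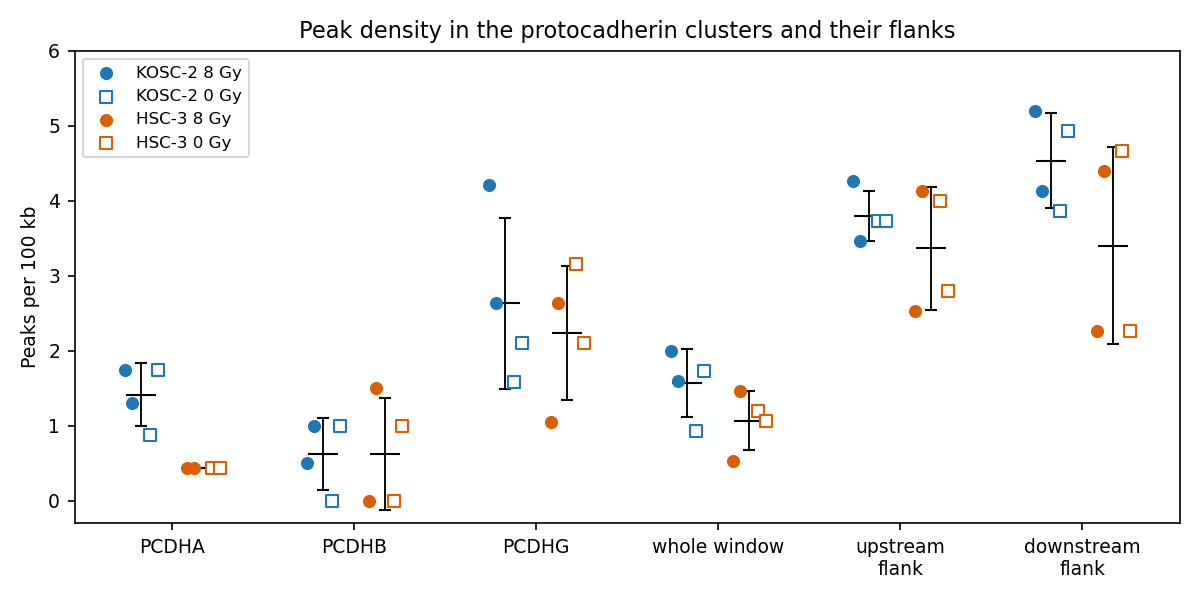
Peaks per 100 kb (y axis) in the PCDHA, PCDHB and PCDHG clusters, the whole window and its 750 kb flanks (x axis). Marks are single libraries (filled circles 8 Gy, open squares 0 Gy; KOSC-2 blue, HSC-3 orange), and bars give the mean and SD of the 4 libraries of a line. Each HSC-3 library has 1 PCDHA peak, and the window lies below both flanks in each of the 8 libraries.

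Over the whole window the lines did not differ beyond the spread between libraries. KOSC-2 libraries had 47 calls and HSC-3 libraries 31, of 92 possible in each line. KOSC-2 had 0.0261% ± 0.00517 of its peaks in the window and HSC-3 0.0247% ± 0.00699 (SD, n = 4 each). The difference was within the spread (exact two-sided permutation test, p = 0.771, adjusted 0.771). Of the peaks in the window and its flanks, 15.6% ± 3.13 lay in the window for KOSC-2 and 13.6% ± 3.19 for HSC-3 (SD, n = 4 each). This share sets the window against its own stretch of chromosome 5, and it did not differ beyond the spread (exact permutation p = 0.343). Whether a gain or loss of the whole stretch would leave it unmoved was not tested. It was lowest in HSC-3 8 Gy replicate 1 (10.0%) and KOSC-2 0 Gy replicate 1 (10.9%), both of low enrichment. HSC-3 0 Gy replicate 2, also of low enrichment, had 17.4%. The mean percentile of the window's peaks averaged 54.5 ± 10.6 for KOSC-2 and 57.9 ± 15.9 for HSC-3 (SD, n = 4 each), also within the spread (exact permutation p = 0.657). At least 1 KOSC-2 library called 19 of the 23 regions (82.6%, against 83.8% of all merged regions), and at least 1 HSC-3 library 13 (56.5%, against 68.0%), so that 10 (43.5%, against 32.0%) had no HSC-3 call. All 4 KOSC-2 libraries called 7 of the 23 regions (30.4%, against 31.8% of all merged regions), and all 4 HSC-3 libraries 4 (17.4%, against 18.1%).

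The design could not call a dose difference in the shares or percentiles, since exchanging doses within each line gives 36 assignments and no p under 0.0556. Within lines, 1 region was called in both KOSC-2 8 Gy libraries and neither KOSC-2 0 Gy library, chr5:140709827-140710364, which is 4.35% of the regions against 3.51% of all merged regions. None of the 23 showed the reverse in KOSC-2 (0.870% of all merged regions), and none was gained (0.680%) or lost (0.957%) in HSC-3. These counts rested on single libraries. Gained regions in KOSC-2 numbered 2 without 8 Gy replicate 1, 5 without 8 Gy replicate 2 and 4 without 0 Gy replicate 2, and lost regions in KOSC-2 3 without 0 Gy replicate 1. In HSC-3, 2 regions counted as gained without 8 Gy replicate 1, and as lost 1 without 8 Gy replicate 2 and 2 without 0 Gy replicate 2. With 1 library left at a dose, a single list decides whether a region counts as called there.

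Averaged over the lines, the share of peaks in the window differed by -0.000451 percentage points between 8 Gy and 0 Gy (0.0252% ± 0.00514 at 8 Gy and 0.0256% ± 0.00709 at 0 Gy, SD, n = 4 each). The exact two-sided permutation p with doses exchanged within each line was 0.944, adjusted 1 over 4 areas. PCDHA (0.000227), PCDHB (0.000175) and PCDHG (-5.62e-05) gave differences with unadjusted exact permutation p of 0.833, 0.889 and 1. The PCDHG value averages opposite differences, 0.00531 for KOSC-2 and -0.00542 for HSC-3, and within each line the shares of the doses did not overlap. In KOSC-2 the PCDHG share was 0.0155% and 0.0118% at 8 Gy, against 0.00785% and 0.00880% at 0 Gy. In HSC-3 it was 0.00889% and 0.0116% at 8 Gy, against 0.0143% and 0.0170% at 0 Gy. The 0.0170% of HSC-3 0 Gy replicate 2 rests on 4 peaks in 3 regions, as the split region counts as 2 peaks. The mean percentile of the window's peaks differed by 2.43 between 8 Gy (57.4 ± 15.8) and 0 Gy (55.0 ± 10.9, SD, n = 4 each, exact permutation p = 0.778). The 4 regions called in all 8 libraries kept their place among the stronger peaks of the lists at both doses, with percentiles of 64.0 to 98.8 except the single value of 38.3 named above. In bulk samples, fewer cells with an open region and a smaller opening in each cell cannot be told apart.

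Strength followed recurrence, here as in the genome. The 11 regions called in 1 library had a median percentile of 19.2 and a median width of 328 bp, against 13.6 and 329 bp for all merged regions called in 1 library. The 4 regions called in all 8 had a median percentile of 82.3 and a median width of 1116 bp, against 79.5 and 952 bp for all merged regions called in 8. The widths are those of merged regions, which can only grow as more lists join, so their rise with recurrence follows in part from the merging. A region near the smallest pileup of a list, 5 to 9 reads, may be open and uncalled in other libraries, so absence of a call at such sites was not distinguishable from absence of accessibility at this depth.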

How the data were processed

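Every library had a headerless narrowPeak list of its own. The submitters' processing notes name MACS2 2.2.6, deepTools, Bowtie2 2.3.4.2, FastQC 0.11.7, SAMtools 1.9 and the build hg19, but state no role or setting for any. How duplicates and the Tn5 shift were handled is not given in the sources used here. Per peak, the authors deposited a whole-number score (about 10 times the −log10 q), the summit's fold over local background (a ratio within the library), its −log10 p and its −log10 q. Strength was compared across lists as the percentile by −log10 p within a list. Fold, and pileup over the background of the library, are also set side by side across lists, without a test. The summit offset gave the summit position.

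Fold and p fix the summit pileup and its background (fold = (pileup + 1) / (background + 1), with p the Poisson tail), and 100% of peaks gave a whole pileup within 0.0001 of the deposited −log10 p. Depth was taken as the lowest background in a list, scaled from 300 bp fragments to 10 kb. Read totals were not used, so no interval was computed.

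Peaks on chromosomes 1 to 22 and X were merged across lists where they shared at least 1 bp. Lines were compared by exact permutation of 4 against 4 libraries (70 assignments), doses with exchange within lines (36), and clusters and flanks by sign flips over libraries (256), with Benjamini-Hochberg adjustment within each family and a threshold of 0.05. The window and its cluster bounds were chosen with earlier results of these data known. The regions named are those called in all libraries, line-only, gained or lost, and the strongest of each cluster, and the remainder are listed to account for all 23. No test on single regions was run, since 4 against 4 libraries cannot pass adjustment over all regions. Promoter sequences came from RefSeq (GRCh38.p14), and peaks and promoters were not placed on one map.

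Alternatives were lists cut to 22504 peaks, a −log10 q minimum of 5, peaks above the 50th percentile, clusters narrowed by 10 kb, bases in place of peaks, 50% coverage, 3 of 4 libraries, leaving out each library in turn and a replicate block. The tools were matplotlib 3.10.9, scipy 1.17.1, numpy 2.4.6 and pandas 2.3.3 in Python 3.11.15, and the functions were tested on simulated lists.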

Additional observations from a re-analysis of the deposited data

Results flagged for a closer look

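Of 18 sets of 4 library values, 3 had a value far from the rest, where chance gives about 1 in 20. KOSC-2 0 Gy replicate 1 had 0.0183% of its peaks in the window, while the remaining KOSC-2 lists had 0.0283 to 0.0290%. HSC-3 8 Gy replicate 2 had a percentile of 64.0 in the region between PCDHB and PCDHG (chr5:140699778-140700826), against 71.8 to 73.4 in the other HSC-3 libraries. HSC-3 0 Gy replicate 2 had a percentile of 38.3 in chr5:140855201-140856383, against 81.3 to 89.3 in the other HSC-3 libraries.

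The share of peaks in PCDHG differed between the doses in opposite directions in the lines, with 2 libraries per line and dose. In KOSC-2 it was 0.0155% and 0.0118% at 8 Gy and 0.00785% and 0.00880% at 0 Gy, a difference of 0.00531 percentage points, and in HSC-3 0.00889% and 0.0116% at 8 Gy and 0.0143% and 0.0170% at 0 Gy, a difference of -0.00542. The gap between these differences, 0.0107 percentage points, had an exact two-sided permutation p of 0.0556, the smallest that exchange of doses within lines allows, in a test chosen after the values were seen. In numbers of peaks, 8 and 5 at 8 Gy against 3 and 4 at 0 Gy in KOSC-2 and 2 and 5 at 8 Gy against 6 and 4 at 0 Gy in HSC-3, the doses overlapped in HSC-3 (exact permutation p = 0.167). KOSC-2 8 Gy replicate 1 alone called weak regions at percentiles 12.2, 13.8 and 8.03. The lowest share of each line came from a library of low enrichment, KOSC-2 0 Gy replicate 1 and HSC-3 8 Gy replicate 1. So did the highest HSC-3 share (0 Gy replicate 2), and the part of enrichment was not tested.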

How the results depend on the processing

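Of 384 values under alternatives, 313 kept their direction and their side of the threshold or, for counts, stayed within 1.5 times. The density differences of PCDHG from PCDHA and PCDHB kept their direction in all 14 alternatives and passed in 13, and those of the window from its flanks kept it in all 13 and passed in 12. The exception in each was the set without the 3 libraries of lowest enrichment, chosen after seeing the data (1.82, 2.15, -2.32 and -3.07), where 5 libraries cannot reach the threshold. The line difference in PCDHA kept its direction in all 16 alternatives (adjusted exact permutation p 0.114 to 0.5). In what follows shares are in percentage points, and causes were not tested. With a −log10 q of at least 5, the line difference in PCDHB turned to 0.00227, the dose differences in the window and PCDHG to 0.0015 and 0.000971, and that in percentile to -2.16, while PCDHB less PCDHA in density was -0.495 and passed. With lists of equal length the dose difference in the window was 0.00222 and in percentile -7.38, and PCDHB less PCDHA -0.652 and passed. With peaks above the 50th percentile the dose differences in the window, PCDHG and percentile were 0.00293, 0.000472 and -11.0, and PCDHB less PCDHA -0.707 and passed. In the last 2 settings PCDHB held no peak, so its line and dose differences were 0. Under each of these 3 settings KOSC-2-only regions numbered 0, and under the last 2 there were 9 regions, 1 of them in 1 library, as fewer peaks enter. Narrowed bounds turned PCDHB less PCDHA to 0.159. They turned PCDHG less PCDHA in percentile to 21.2, a value from KOSC-2 libraries only. With bases counted, the dose difference in PCDHB was -0.000127, and PCDHB less PCDHA -332 bases per 100 kb, which passed. With 50% coverage 1 region was called in all libraries and 0 were KOSC-2-only, and with 3 of 4 libraries 2 were. Without the 3 libraries the line difference in PCDHB was 0.000202 and the dose differences in the window, PCDHA, PCDHG and percentile 0.00206, -0.000728, 0.00106 and -2.64. As shares of chromosome 5 peaks, also chosen after seeing the data, the line difference in PCDHG was 0.0151 and the dose differences in the window and PCDHG 0.0174 and 0.0158. Leaving out 1 library at a time, line differences ran from -0.000964 to 0.00446 in the window, -0.0024 to 0.000441 in PCDHB and -8.4 to 4.14 in percentile. Dose differences ran from -0.0036 to 0.0027 in the window, -0.000665 to 0.00112 in PCDHA, -0.00195 to 0.0023 in PCDHB, -0.000978 to 0.000865 in PCDHG and -6.08 to 10.9 in percentile. Regions in 1 library numbered 7 to 12, KOSC-2-only 1 to 2, KOSC-2 gained 1 to 5 and lost 0 to 3, and HSC-3 gained 0 to 2 and lost 0 to 2. A replicate block (16 assignments, smallest p 0.125) left each direction, with an exact permutation p of 0.125 for PCDHA between lines. Replicate numbers are not said to mark shared cultures, and replicate differences over all regions correlated at 0.0178 between doses in KOSC-2 and -0.154 in HSC-3. Neither this block nor one with the numbers crossed in HSC-3 could call a difference, whatever the values. List length and depth, from 20.2 to 64.8 background reads per 10 kb, limit what weak regions can show.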
